A study of Homo sapiens with 22 samples.

Results

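Among 35237 genes counted in 2 human neuroblastoma cell lines, 78 were lower in treated SK-N-AS cells and higher in treated GIMEN cells after 30 days of treatment. They include secretory granule genes (SCG2, CHGB, CPE), the brain creatine kinase CKB, the glycine transporter SLC6A9, ion channel subunits (ASIC1, CHRNA1), matrix and guidance genes (MFAP4, FRAS1, NTN4, EFNB3) and the flippase ATP8A1. Members were chosen on scaled counts (CPM, the count as a share of the library's total count, scaled to 1000000). The ratio of group means, each with 1 CPM added, had to be at most 0.5 in SK-N-AS and at least 2 in GIMEN, with no overlap between treated and untreated libraries in either line. The 30-day levels of the members are therefore a description of what was selected, and carry no test.

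SK-N-AS and GIMEN are established lines, and the labels place both in the mesenchymal class of neuroblastoma, a tumour of the sympathetic nervous lineage. Untreated SK-N-AS cells grew in DMEM with 10% fetal bovine serum (n = 4). The S1D4 group received 5 µM PP121, an inhibitor of tyrosine and phosphoinositide kinases, in DMEM with 1% serum for 4 days (n = 4). S1D4 cells were then moved to Neurobasal medium with B27 supplement, 5 µM PP121 and 100 nM bufalin, a cardiac glycoside that blocks the sodium pump, and kept there for 4 days in the S2D4 group (n = 4) and 30 days in the S2D30 group (n = 4). Untreated GIMEN cells grew in RPMI with 10% serum (n = 3), and the D30 group received 2.5 µM PP121 and 10 nM bufalin in RPMI with 1% serum for 30 days, with no preceding stage (n = 3). Dose, medium and schedule thus differ between the lines, so that line and protocol cannot be told apart. Serum and treatment change together in every treated group. Each line stands for a single tumour. The labels do not say whether replicates came from separate cultures, and p-values measure the spread between these libraries, which may be technical.

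Secretory granules of neuroendocrine cells store peptide hormones. Granins such as SCG2 and CHGB help to pack the granule, and carboxypeptidase E (CPE) trims peptide precursors inside it. Sympathetic neurons and the chromaffin cells of the adrenal medulla are rich in such granules, and neuroblastoma lines keep this trait to different degrees. Some of the other named members are ion channel, synaptic or guidance genes, kinds that are typical of neurons and their precursors. Several of them, such as ASIC1, NTN4 and SYT3, were named only because the naming rule takes the strongest members of each gene list. Their share of the named genes therefore does not describe the members as a whole.

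Library totals ran from 16456484 to 37506800 counts. Both lines expressed most of the mesenchymal markers that were looked up: all 10 had a mean of at least 1 CPM in untreated SK-N-AS, and 9 of 10 in untreated GIMEN. Their summed level was 1104 to 1615 CPM in untreated SK-N-AS and 33240 to 34730 CPM in untreated GIMEN, mostly from FN1 there. After 30 days this sum was 3428 to 3954 CPM in S2D30 and 19770 to 21440 CPM in D30. The adrenergic list also reached 1 CPM for 9 of its 10 genes in untreated SK-N-AS, where its summed level was 4847 to 10800 CPM, mostly from the granin CHGA, against 196 to 251 CPM in S2D30. In untreated GIMEN 3 of the 10 reached 1 CPM, and PHOX2A, TH and DDC were among those with 0 counts. The adrenergic sum was 359 to 383 CPM in untreated GIMEN and 217 to 253 CPM in D30. The white blood cell list summed to 86.6 to 98.2 CPM in untreated GIMEN and 170 to 371 CPM in D30, mostly from the lysosomal gene CD68. In untreated SK-N-AS it ran from 187 to 245 CPM, mostly from PTPRC (mean 193 CPM). In S2D30 it ran from 104 to 149 CPM, mostly from CD68. Mean PTPRC was 0.841 CPM in S2D30, while mean CD68 was 14.3 CPM in untreated SK-N-AS and 122 CPM in S2D30. CD3E and MS4A1 had 0 counts in all SK-N-AS groups. S2D4 replicate 4 stood apart from the other 3 libraries of its group. Its adrenergic sum was the highest of the group (1036 to 4314 CPM) and its mesenchymal sum the lowest (2367 to 4916 CPM). The part of these markers in the members' levels was not tested. In bulk RNA, fewer cells of a type and less RNA per cell cannot be told apart.

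Of all genes, 11736 had means that could meet the rule, that is at least 1 CPM in untreated SK-N-AS and in GIMEN D30. Among these, 15.8% met the SK-N-AS part of the rule and 9.59% the GIMEN part. Over the whole table, 2667 genes were lower in S2D30 and 1314 higher in D30, and the 78 members made up 2.92% of the former and 5.94% of the latter. Most shared changes went the same way: 701 genes were lower in both lines and 528 were higher in both, and 60 were higher in SK-N-AS and lower in GIMEN. The members' median log2 ratio was -1.52 in SK-N-AS, down to -5.46 for MFAP4, and 1.40 in GIMEN, up to 4.24 for RP11-572P18.1. The thresholds cut through a continuum. Just inside them lay FGF14 (ratio 0.497) and PAQR8 (0.493) in SK-N-AS, and PCDH17 (2.005) and MCC (2.01) in GIMEN, and just outside lay EBF4 (0.503), MACF1 (0.5045) and PIANP (1.98). A further 5 genes passed both folds but had overlapping libraries.

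**Figure D1:**
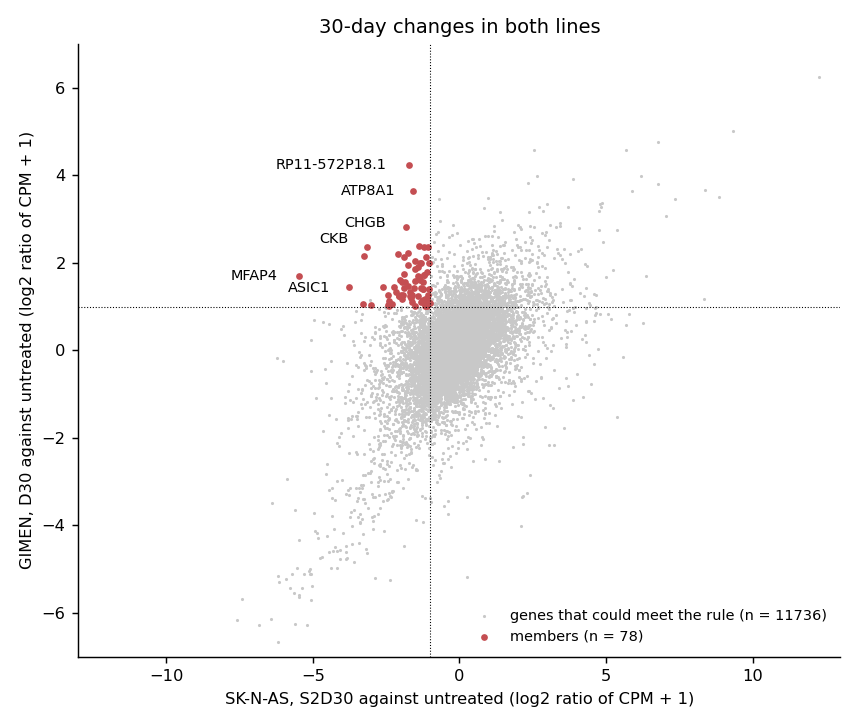
Log2 ratio of mean CPM + 1 after 30 days in SK-N-AS (x axis, S2D30 against untreated) and GIMEN (y axis, D30 against untreated), 1 point per gene for the 11736 genes that could meet the rule; dotted lines mark the thresholds. The 78 members, in red, fill the upper left corner by construction, with MFAP4 farthest left (-5.46) and RP11-572P18.1 highest (4.24).

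The granule genes among the members differed from each other in their course. SCG2, the precursor of the peptide secretoneurin, stood at 368, 309.9, 413 and 367.5 CPM in untreated SK-N-AS and 95.7, 108.5, 100.5 and 90.4 CPM in S2D30. Between these points it was higher, at 681, 603, 842 and 834 CPM in S1D4 and 1866, 1888, 1838 and 1941 CPM in S2D4. In GIMEN SCG2 read 237, 223 and 229 CPM untreated and 1007, 959.8 and 1048 CPM in D30. No group of SK-N-AS libraries overlapped another, and the S2D4 peak was the highest level of the gene in either line. CHGB, chromogranin B, measured 101.5, 117, 238 and 284 CPM in untreated SK-N-AS, 116 to 154 CPM in S1D4, 157 to 275 CPM in S2D4 and 47.8, 58.7, 51.8 and 46.4 CPM in S2D30. Untreated replicates 1 and 2 lay near S1D4 and replicates 3 and 4 well above it. GIMEN CHGB was 19.1, 19.4 and 18.4 CPM untreated and 99.1, 155 and 165 CPM in D30. CPE measured 129, 111, 148 and 163 CPM in untreated SK-N-AS and 39, 41.6, 37.9 and 42 CPM in S2D30, with S2D4 already at 39.5 to 66.4 CPM. In GIMEN CPE went from 2.46, 2.41 and 2.48 CPM to 6.63, 14.5 and 15.8 CPM, so that its D30 libraries all stayed below those of treated SK-N-AS.

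Other granule genes, looked up after the members were known, did not share the pattern. CHGA had a mean of 5779 CPM in untreated SK-N-AS and 21.3 CPM in S2D30, and 0 to 0.0992 CPM in untreated GIMEN with 0 counts in D30. VGF, a neuropeptide precursor, was far higher after treatment in both lines, with 149 to 293 CPM in untreated SK-N-AS, 36360 to 39310 CPM in S2D30, 212 to 220 CPM in untreated GIMEN and 2239 to 2717 CPM in D30. PCSK1, a prohormone convertase, was also higher in both (mean 0.226 and 40.2 CPM in SK-N-AS, 0.91 and 9.90 CPM in GIMEN). SCG3 was lower in S2D30 (mean 16.7 and 4.24 CPM) and at most 1.105 CPM in every GIMEN library.

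Genes of metabolism and membrane transport held some of the strongest opposite changes. CKB, which buffers ATP through phosphocreatine, had 311, 272, 411 and 299.8 CPM in untreated SK-N-AS and 37.8, 32.5, 34 and 36.3 CPM in S2D30. GIMEN carried little of it, 2.23, 3.05 and 2.23 CPM untreated and 16.5, 17.4 and 17.1 CPM in D30. The D30 level in GIMEN was still below every S2D30 library. SLC6A9, the glycine transporter GlyT1, read 20.9, 19.7, 28.4 and 30.4 CPM in untreated SK-N-AS and 2.62, 0.401, 1.1 and 2.8 CPM in S2D30, against 7.91, 9.635 and 7.39 CPM and 27.4, 49.8 and 44.7 CPM in untreated and treated GIMEN. Its order between the lines thus turned over. CA11, a carbonic anhydrase relative without catalytic activity, had 46.7, 44.5, 43.9 and 36.2 CPM in untreated SK-N-AS, 63.6 to 75.9 CPM in S1D4 and 10.2, 9.52, 8.03 and 8.9 CPM in S2D30. GIMEN CA11 was 10.8, 11.6 and 9.87 CPM untreated and 38.5, 57.1 and 64.1 CPM in D30. ATP8A1, which moves phospholipids to the inner leaflet of membranes, was in untreated GIMEN at 0.546, 0.387 and 0.694 CPM and reached 16.1, 15.4 and 23.15 CPM in D30. In SK-N-AS it measured 21.3, 24.3, 26.4 and 49.1 CPM untreated and 10.7, 8.72, 8.03 and 10.45 CPM in S2D30. AKR1C1 and AKR1C3, aldo-keto reductases that act on steroids, differed in course. AKR1C1 had means of 6.695 ± 2.33 CPM untreated, 1.29 ± 0.4085 CPM in S1D4 and 2.11 ± 0.27 CPM in S2D30, whereas AKR1C3 stayed at 4.995 ± 1.745 CPM in S1D4 (untreated 4.54 ± 2.06 CPM) and was 0.1355 ± 0.05905 CPM in S2D30 (SD, n = 4). In GIMEN AKR1C1 ranged from 4.04 to 4.775 CPM untreated and from 12.2 to 25.6 CPM in D30, and AKR1C3 from 2.18 to 2.5 CPM and from 3.315 to 7.66 CPM. Of the 75-base words of AKR1C1, 21.9% also occur in another gene, so reads of the family may be split.

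**Figure D2:**
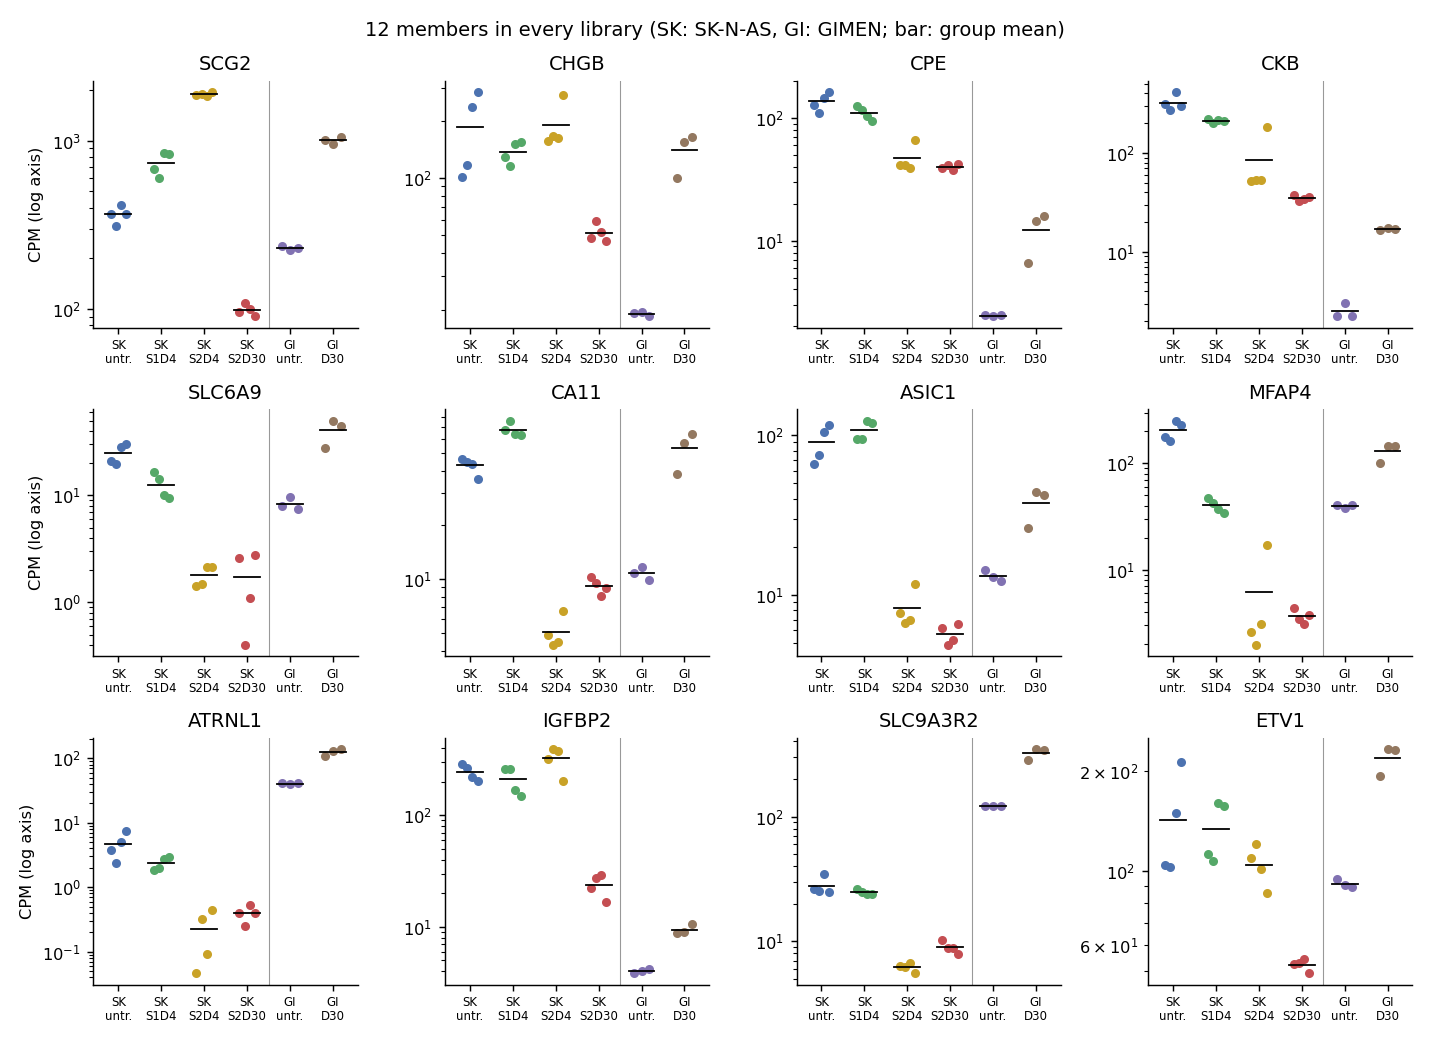
CPM on a log axis for 12 named members, 1 point per library and a bar at each group mean, in the 4 SK-N-AS groups and the 2 GIMEN groups. SCG2 peaks in S2D4 (1838 to 1941 CPM), CKB steps down through the SK-N-AS groups with 1 high S2D4 library (182 CPM), and in each panel the GIMEN D30 points lie above the untreated ones.

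The members also held ion channel and synaptic genes. ASIC1, a proton-gated sodium channel, stood at 66, 74.8, 105 and 115.5 CPM in untreated SK-N-AS, a mean of 108 ± 15.5 CPM in S1D4, 6.7 to 11.7 CPM in S2D4 and 6.22, 4.86, 5.22 and 6.58 CPM in S2D30, and at 14.2, 12.9 and 12.2 CPM and 26.3, 44.3 and 42 CPM in untreated and treated GIMEN. The S1D4 libraries of ASIC1 overlapped the untreated ones, and those of S2D4 and S2D30 lay far below both. CHRNA1, the alpha subunit of the muscle nicotinic receptor, was low throughout, with 1.33 to 3.34 CPM in untreated SK-N-AS, 0.0889 to 0.651 CPM in S2D30, 0.347 to 0.5 CPM in untreated GIMEN and 1.95 to 4.34 CPM in D30. FGF14, an intracellular partner of sodium channels, had means of 15.9 ± 2.65 CPM untreated, 2.43 ± 0.4455 CPM in S2D4 and 7.42 ± 1.1 CPM in S2D30 (SD, n = 4), so its lowest point was S2D4. In GIMEN FGF14 was 0.595 to 0.946 CPM untreated and 2.105 to 4.01 CPM in D30. Reads for FGF14 are uncertain, because 33.2% of its exon bases lie opposite another gene and the use of strand in counting is not stated. SYT3, a synaptotagmin, was 2 to 4.6 CPM untreated and 0.551 to 1.29 CPM in S2D30, and 4.55 to 5.25 and 9.68 to 13.4 CPM in untreated and treated GIMEN. SGIP1, an adaptor of endocytosis, had 38.3, 50.04, 38 and 48.9 CPM untreated and 11.4, 9.92, 10.8 and 9.65 CPM in S2D30, while GIMEN had 33.1, 30.6 and 27.9 CPM and 97.8, 87.6 and 88.8 CPM. The G-protein regulator RGS11 was 1.31 to 2.29 CPM in untreated SK-N-AS, 0.132 to 0.551 CPM in S2D30, 0.043 to 0.0992 CPM in untreated GIMEN and 1.04 to 1.47 CPM in D30. ADGRB2, an adhesion G-protein-coupled receptor of the brain, measured 117, 130.1, 146 and 158 CPM untreated, 32.1, 30.75, 33.2 and 85.6 CPM in S2D4 and 24.6, 24.3, 23.1 and 25.6 CPM in S2D30, and in GIMEN 14.8, 14 and 14.3 CPM and 30.9, 39.9 and 36.4 CPM. Its relatives differed: ADGRB1 had a mean of 7.59 CPM untreated and 24.3 CPM in S2D30, and ADGRB3 was 20.9 and 2.38 CPM, with both at most 1.075 CPM in every GIMEN library.

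Among matrix, adhesion and guidance genes, MFAP4, a microfibril-associated glycoprotein, had the lowest SK-N-AS ratio of the 78. It read 179, 162, 252 and 227.5 CPM untreated, 46.9, 42.7, 37.3 and 34.2 CPM in S1D4, 2.62, 1.97, 3.1 and 17.2 CPM in S2D4 and 4.4, 3.46, 3.07 and 3.74 CPM in S2D30. GIMEN MFAP4 was 40.3, 38.15 and 40.4 CPM untreated and 101, 146 and 146 CPM in D30. FRAS1, a basement membrane protein, had 14.7, 17, 12.5 and 30.65 CPM in untreated SK-N-AS, 2 to 4.3 CPM in S1D4, 0.35 to 1.43 CPM in S2D4 and 6.45, 6.46, 5.31 and 5.43 CPM in S2D30, a partial return after S2D4. In GIMEN it was 4.46, 3.83 and 4.81 CPM and 17.8, 16.6 and 20.8 CPM. NTN4, netrin 4, a laminin-related protein of basement membranes, ranged from 8.91 to 13 CPM in untreated SK-N-AS and from 2.94 to 3.82 CPM in S2D30, and from 25.2 to 29.9 CPM and 81.35 to 93.5 CPM in untreated and treated GIMEN. EFNB3, a membrane-bound ligand of Eph receptors, was 27.6, 28, 33.2 and 29 CPM untreated, 4.13, 4.42, 5.55 and 24.3 CPM in S2D4 and 9.25, 8.67, 6.98 and 10.5 CPM in S2D30, and 14.6 to 15 and 31.3 to 41.4 CPM in GIMEN. In S2D4 replicate 4 EFNB3 lay just under the S1D4 range (26.7 to 33.1 CPM), and in the other 3 libraries under each S2D30 library. ATRNL1, an attractin-like membrane protein, had 3.79, 2.41, 5.12 and 7.515 CPM in untreated SK-N-AS and 0.4, 0.2505, 0.527 and 0.4 CPM in S2D30, but 41.2, 39.96 and 40.9 CPM and 109, 132 and 139 CPM in GIMEN. PLAU, the urokinase protease, was 6.745, 5.66, 1.15 and 1.52 CPM in untreated SK-N-AS and 0.889, 0.551, 0.527 and 0.756 CPM in S2D30, and 7.41, 6.495 and 5.7 CPM and 34.9, 26.85 and 28.8 CPM in GIMEN. Untreated SK-N-AS replicates 3 and 4 held less PLAU than replicates 1 and 2, and 31.1% of its exon bases lie opposite another gene. PCDH17, a protocadherin, was 4.23 to 9.21 CPM untreated, 1.76 to 2.76 CPM in S2D30, and 0.728 to 1.04 and 2.61 to 2.89 CPM in GIMEN.

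Signalling and transcription genes followed. IGFBP2, which binds insulin-like growth factors, had 289, 264.5, 221 and 201.5 CPM untreated, 150.3 to 261 CPM in S1D4, 203 to 392.5 CPM in S2D4 and 22.45, 27.2, 29.4 and 16.6 CPM in S2D30. In GIMEN it was 3.82, 4 and 4.22 CPM untreated and 8.74, 8.91 and 10.7 CPM in D30, still below each S2D30 library. LRP5, a Wnt co-receptor, had means of 149.6 ± 22.3 CPM untreated and 66.05 ± 3.665 CPM in S2D30 (SD, n = 4), and 65 ± 2.27 and 140 ± 10.1 CPM in GIMEN (SD, n = 3). ETV1, a transcription factor of the ETS family, was 103 to 213 CPM untreated, 85.85 to 121 CPM in S2D4 and 49.3 to 54.3 CPM in S2D30, and 89.5 to 94.9 and 192 to 232 CPM in GIMEN. The S2D4 and untreated libraries of ETV1 overlapped. CITED1, a co-activator that binds CBP and p300, was 8.505, 8.17, 13.8 and 11.3 CPM untreated and 2.53, 2.71, 2.11 and 2.36 CPM in S2D30, and 0.091, 0.258 and 0.397 CPM and 2.105, 6.83 and 5.59 CPM in GIMEN. Of its 75-base words, 30.7% occur in another gene. ZNF385A, a zinc finger protein, had 88.9 to 112 CPM untreated, 42.05 to 55 CPM in S1D4, 18.7 to 24.7 CPM in S2D4 and 31.1 to 35.4 CPM in S2D30, and 4.9 to 5.01 and 12.8 to 21 CPM in GIMEN. SLC9A3R2, a PDZ scaffold protein named after the exchanger it binds, was 25.1 to 34.8 and 7.87 to 10.3 CPM in untreated and S2D30 cells, and 121 to 122 and 285.5 to 346 CPM in GIMEN. Of the interferon-induced genes, OAS1, a sensor of double-stranded RNA, was 1.57 to 2.97 CPM untreated and 0.0889 to 0.439 CPM in S2D30, against 0.397 to 0.86 and 3.89 to 5.38 CPM in GIMEN. GBP2, a guanylate-binding protein, had 11, 7.15, 8.98 and 7.93 CPM untreated, 36.1, 33.4, 40.7 and 37.7 CPM in S1D4 and 3.78, 3.21, 4.04 and 3.25 CPM in S2D30, with 1.82, 1.33 and 1.19 and 5, 3.76 and 4.92 CPM in GIMEN. The S1D4 libraries of GBP2 were all above those of each other group.

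The nuclear genes MTRNR2L12, MTRNR2L8, MTRNR2L6 and MTRNR2L1 resemble the mitochondrial ribosomal RNA gene that encodes humanin, so that their counts are uncertain. MTRNR2L12 had 1707, 2082, 1342 and 967 CPM in untreated SK-N-AS, 562, 512, 451 and 1790 CPM in S2D4 and 402, 409.5, 438 and 387 CPM in S2D30, and 221, 222 and 222 CPM and 852, 818 and 558 CPM in GIMEN. S2D4 replicate 4 was the one high library of its group. Counts of the genes whose symbols begin with MT- took 5.47% to 12.4% of the library in untreated SK-N-AS and 3.34% to 5.53% in S2D30. In GIMEN their share was 3.83% to 4.07% untreated and 2.86% to 4.77% in D30. No mitochondrial ribosomal RNA gene was among them, so this share does not measure the RNA that the MTRNR2L genes resemble. The part of mitochondrial RNA in the MTRNR2L levels was not tested. RP11-572P18.1, a symbol without an entry in the GENCODE 29 annotation, had the highest GIMEN ratio. It read 1.05, 0 and 0 CPM in untreated GIMEN and 11.3, 16.9 and 45.15 CPM in D30, and 140.4, 129, 133 and 93 CPM and 46.4, 43.7, 27.4 and 31.2 CPM in untreated and S2D30 cells.

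The other members are listed here outside the rule for named genes, to account for those not yet described. Cytoskeleton and small GTPase genes were MAP1A, SLAIN1, DZIP1, ARHGEF2, RND2, KAZN, IQGAP2, FHL1 and MAST1. ARHGEF2, a microtubule-bound exchange factor of small GTPases, had mean levels of 148 and 66.3 CPM in untreated and S2D30 cells and 131 and 577 CPM in untreated and treated GIMEN. MAP1A, a microtubule-associated protein of neurons, measured 128 and 52.5 CPM in the SK-N-AS groups and 164 and 362 CPM in those of GIMEN. Adhesion genes were CELSR2, ADGRL1, SDK1, SLITRK5, CDON and SSPO, and receptors of other kinds were GPR173, CYSLTR2 and PAQR8. ADGRL1, the latrotoxin receptor latrophilin, had mean levels of 241 and 44.8 CPM in SK-N-AS and 30.9 and 63.5 CPM in GIMEN. Signalling members were MAP3K1, PDE4B, RALGDS, TBC1D4, PTPN4, PPM1M, MCC, CRIPAK and NBEA. Metabolic and membrane proteins were PDK4, FAR2, BSCL2, PRUNE1, MANEAL, MFSD3 and TMTC2. PDK4, a kinase that holds back pyruvate dehydrogenase, had 0 counts in all 3 untreated GIMEN libraries and a mean of 1.10 CPM in D30. The remaining symbols were KIAA1683, SOBP, FAM107B, TMEM51, FAM212B, CH17-5A7.1 and PLEKHB1. All 73 members found in GENCODE 29 are protein-coding there. At least 10% of the exon bases lie opposite another gene in 9 of them, and at least 10% of the 75-base words are shared with another gene in 5.

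The promoters of 4 of the strongest named members are shown, the first in order of strength that have an entry in the sequence table. They are the 250 bases before the first listed start in RefSeq (GRCh38.p14), 5′ to 3′ on the gene's strand, with capitals on any of 8 motifs searched on both strands.
CKB, chr14:103522831-103523080, minus strand: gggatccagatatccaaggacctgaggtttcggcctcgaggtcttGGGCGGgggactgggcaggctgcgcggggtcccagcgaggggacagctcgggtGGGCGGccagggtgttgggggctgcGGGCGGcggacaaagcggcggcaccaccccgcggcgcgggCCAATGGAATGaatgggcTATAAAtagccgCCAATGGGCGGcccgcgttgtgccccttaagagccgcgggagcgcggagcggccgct
SLC6A9, chr1:44031463-44031712, minus strand: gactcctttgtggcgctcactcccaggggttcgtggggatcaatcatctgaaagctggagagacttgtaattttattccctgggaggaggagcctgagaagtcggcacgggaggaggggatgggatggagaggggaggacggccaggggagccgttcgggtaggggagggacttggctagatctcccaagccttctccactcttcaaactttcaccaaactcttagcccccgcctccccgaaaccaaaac
CPE, chr4:165378758-165379007, plus strand: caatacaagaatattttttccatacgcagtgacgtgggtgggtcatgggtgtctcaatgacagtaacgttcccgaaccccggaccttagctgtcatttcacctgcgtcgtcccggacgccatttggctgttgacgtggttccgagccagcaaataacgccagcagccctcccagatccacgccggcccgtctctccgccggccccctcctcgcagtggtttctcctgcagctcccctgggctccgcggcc
CITED1, chrX:72307158-72307407, minus strand: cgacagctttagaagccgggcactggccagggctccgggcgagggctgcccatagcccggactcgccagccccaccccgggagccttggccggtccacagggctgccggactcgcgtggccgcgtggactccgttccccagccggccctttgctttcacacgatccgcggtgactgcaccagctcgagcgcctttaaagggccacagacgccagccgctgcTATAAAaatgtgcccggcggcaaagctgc
CKB held a TATA box (TATAAA), 2 CCAAT boxes, 4 GC boxes (GGGCGG) and a TEAD motif (GGAATG), some of which overlap each other. CITED1 held a TATA box, and neither SLC6A9 nor CPE held any of the motifs. A promoter was found for 51 of the 78 members. The TATA box was in 3 of the 51 (11.1% of all 27305 promoters), CCAAT in 13 (33.0%), the GC box in 29 (42.3%) and TEAD in 2 (11.9%). The E-box CACGTG was in 2 (6.49% of all), the AP-1 motif TGANTCA in 1 (6.6%), the FOXO motif TGTTTAC in 1 (2.98%) and the CRE TGACGTCA in 0 (1.77%). The median GC content was 64.4% over the members' windows and 58.0% over all. These matches describe letters only.

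The time course in SK-N-AS showed when the members reached their low level. In S1D4, 9 members (11.5%) were at least 2-fold below untreated cells without overlap, where 3.13% of the genes that could meet the rule were. Among the 9 were MFAP4, ZNF385A, FRAS1, IQGAP2, NTN4, SLITRK5, AKR1C1 and MTRNR2L1. In S2D4 MTRNR2L1 read 74.3, 64.1, 60.8 and 199 CPM, against 95.1 to 223 CPM untreated and 62.9 to 90.3 CPM in S1D4, so that replicate 4 alone kept it from the 2-fold lower call there. In S2D4, 47 members (60.3%) were lower, against 12.3% of those genes. Without S2D4 replicate 4, a setting chosen after seeing the data, 52 members were lower, against 12.6%, and 45 of these were among the 47. Since both comparisons share the untreated libraries that chose the members, no test was made. Levels first became 2-fold lower in S2D4 for 39 members, among them CKB, CPE, ASIC1, CA11, SLC6A9 and MAP1A, and in S2D30 for 30, among them CHGB, IGFBP2, ATP8A1, SGIP1 and ETV1. Without S2D4 replicate 4 these numbers were 43 and 26. SCG2, KIAA1683, SDK1, MANEAL and GBP2 were at least 2-fold higher in S1D4 than in untreated cells (6.41% of members, 3.13% of genes that could meet the rule), and SCG2 alone was so in S2D4 (6.6% of those genes). The lowest mean was in S2D30 for 52 members and in S2D4 for 26. For the lowest mean and the first 2-fold fall, no share over all genes was counted, so these numbers describe the members alone. From S2D4 to S2D30, 18 members were at least 2-fold lower, IGFBP2, SCG2 and CHGB among them (5.03% of those genes), and 2 of the 18, CKB and SSPO, had already been lower in S2D4 than in untreated cells. Without S2D4 replicate 4 the number was 16 (4.91% of those genes), with CKB and SSPO no longer among them. In the same interval FRAS1, MAP1A and FGF14 were at least 2-fold higher (4.94%).

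**Figure D3:**
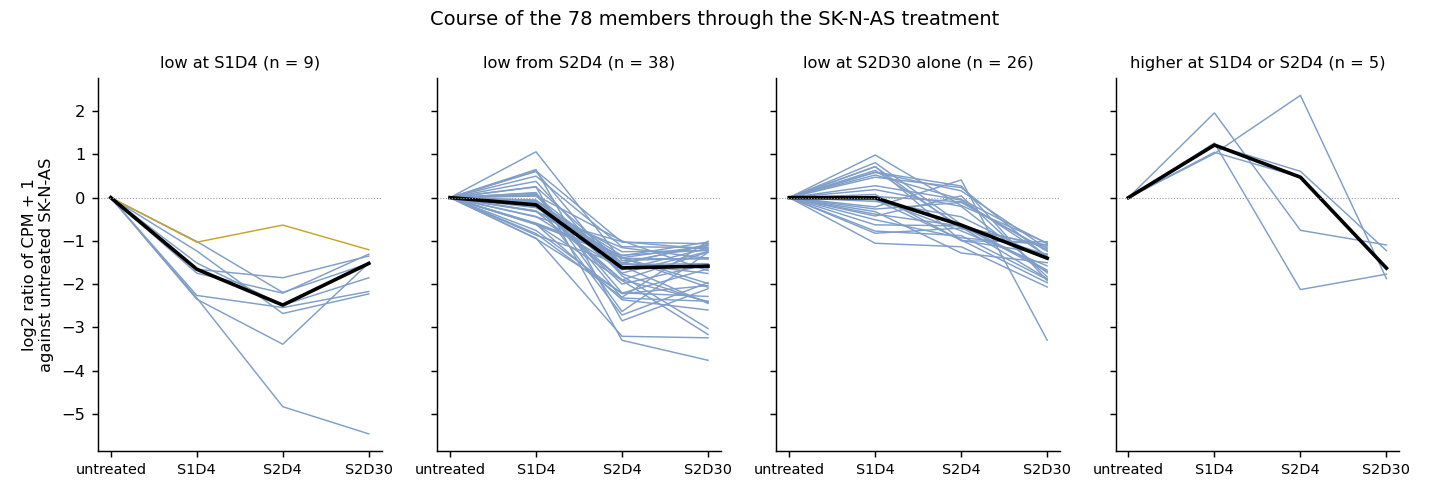
Log2 ratio of mean CPM + 1 to untreated SK-N-AS for each member (thin lines; black, the median) in S1D4, S2D4 and S2D30, in panels by when the 2-fold lower level was reached. All lines end below -1 because the rule requires it; MTRNR2L1 (yellow) is low in S1D4 and, by a mean that S2D4 replicate 4 lifts, less low in S2D4, and SCG2 goes up before it goes down in the panel of the 5 members that were higher on the way, which the panels of 38 and 26 leave out.

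The step from S1D4 to S2D4, in which Neurobasal medium and bufalin were added, was tested in 8 libraries that took no part in choosing the members. However, members were chosen as low in S2D30, which continued the S2D4 treatment, so an excess of falls in this step is partly built in. The share that fell among all genes lower in S2D30 was not counted, so the falls cannot be called particular to the members. All 78 members could be tested. For some members the S1D4 libraries were not evenly spread. LRP5 measured 95.86 and 97.55 CPM in replicates 1 and 2, and 123.9 and 124.2 CPM in the rest. IGFBP2 had 259.6 and 261.4 CPM there, and 169.2 and 150.3 CPM in the rest. CKB showed no such split (220 and 203 CPM, against 214.6 and 208.3 CPM). The test treats the 4 libraries of a group as independent, and the effect of such pairs was not tested. By edgeR's quasi-likelihood test, 53 members (67.9%) fell and 4 (5.13%) rose at an adjusted p under 0.05, while 25.7% of all 14716 genes tested fell and 27.8% rose. The median log2 fold change was -1.004 over the members and 0.02 over all genes tested. Of the 53 members that fell at this threshold, 38 did so by 1 or more on the log2 scale. By the plain fold of mean CPM + 1, 43 members were at least 2-fold lower without overlap (9.42% of the 11736 genes that could meet the rule) and 1, SCG2, was higher (3.63%). Leaving out S2D4 replicate 4 gave 61 members that fell and 4 that rose. With all 8 libraries, the log2 fold change was -3.50 ± 0.17 (SE; adjusted p = 1.28e-06) for CA11, -3.47 ± 0.21 (SE; adjusted p = 3.92e-06) for ASIC1 and -2.56 ± 0.26 (SE; adjusted p = 5.06e-05) for SLC6A9. FGF14, SYT3, SGIP1, RGS11 and ADGRB2 also fell. For CA11, ASIC1 and SLC6A9, each S2D4 library lay below each S1D4 library. Of the granule genes, SCG2 rose, with a log2 fold change of 1.56 ± 0.12 (SE; adjusted p = 9.98e-06), CHGB rose by 0.69 ± 0.20 (SE; adjusted p = 0.0178) and CPE had -1.01 ± 0.19 (SE; adjusted p = 0.00198). CHGB no longer passed when S1D4 replicate 1 (adjusted p = 0.0508) or replicate 2 (adjusted p = 0.0574) was left out. Without S2D4 replicate 4, the log2 fold change of CHGB was smaller, at 0.41 (adjusted p = 0.00248). IGFBP2 had a log2 fold change of 0.83 ± 0.24 (SE; adjusted p = 0.0157), and the fourth member that rose, TMTC2, which falls outside the naming rule, had 0.36 ± 0.13 (SE; adjusted p = 0.0451) and lost its call under several settings. Matrix genes fell further in this step, MFAP4 at -2.40 ± 0.65 (SE; adjusted p = 0.0116) and FRAS1 at -1.53 ± 0.41 (SE; adjusted p = 0.0119), although both were already low in S1D4. Without S2D4 replicate 4, MFAP4 had -3.79 (adjusted p = 7.21e-08). The interferon-induced GBP2, high in S1D4, fell with -2.75 ± 0.17 (SE; adjusted p = 3.44e-06). CKB and EFNB3 did not pass, with -1.07 ± 0.42 (SE; adjusted p = 0.0556) and -1.38 ± 0.56 (SE; adjusted p = 0.0614). Without S2D4 replicate 4 their log2 fold changes were -1.83 (adjusted p = 4.87e-09) and -2.51 (adjusted p = 1.23e-07). MTRNR2L12 had 0.13 ± 0.44 (SE; adjusted p = 0.818) with that library and -0.64 (adjusted p = 0.00352) without it. CITED1, CHRNA1, NTN4, ETV1, PCDH17, AKR1C1 and RP11-572P18.1 did not pass either. AKR1C3, by contrast, had -4.30 ± 0.41 (SE; adjusted p = 3.85e-05).

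**Figure D4:**
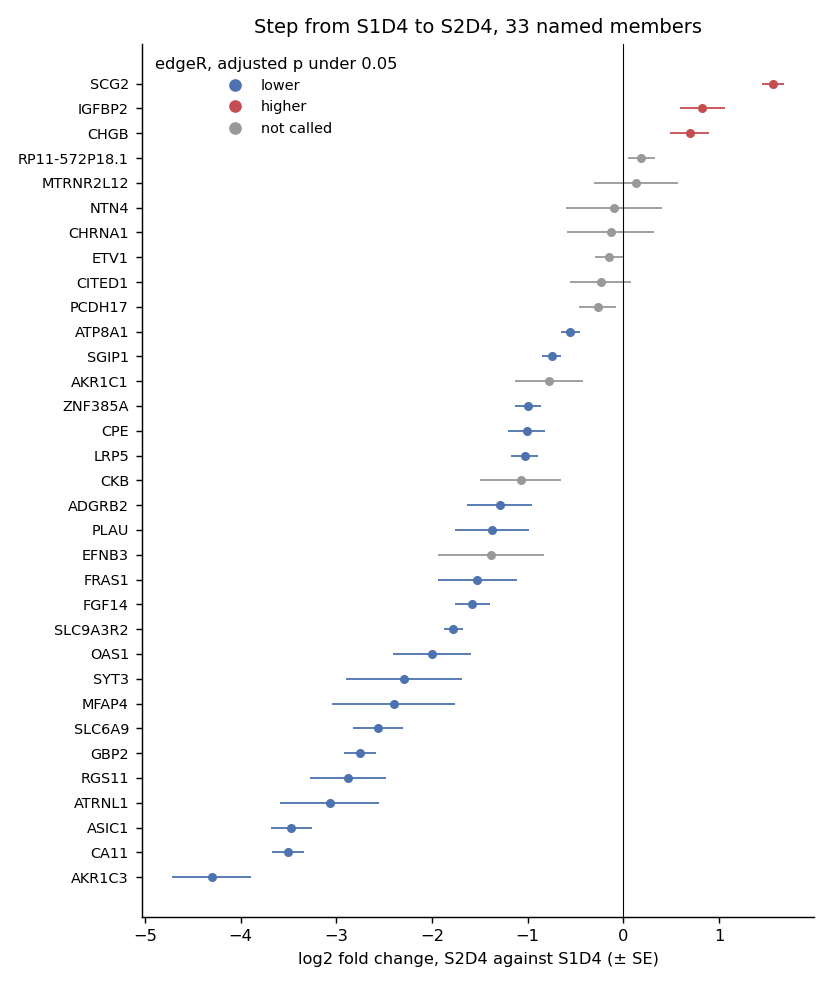
Log2 fold change from S1D4 to S2D4 of 33 named members, with 1 standard error on each side (edgeR, 4 libraries against 4). CA11, ASIC1 and AKR1C3 lie at the low end, and SCG2, IGFBP2 and CHGB are the called points above 0.

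The starting levels of the lines also differed. In untreated cells, 55 members were at least 2-fold higher in SK-N-AS than in GIMEN without overlap (18.9% of the genes that could meet the rule), and ATRNL1, SLC9A3R2 and NTN4 were lower (10.9%). After 30 days, 40 members were lower in SK-N-AS S2D30 than in GIMEN D30 (13.5%), and CKB, CPE, MAP3K1, KAZN, IGFBP2, RALGDS and FGF14 were higher (13.5%). Both sets of libraries took part in the rule, so these are descriptions. In 30 members the mean in GIMEN D30 was above that of untreated SK-N-AS, SCG2, SLC6A9 and ARHGEF2 among them. In untreated GIMEN 13 members had a mean below 1 CPM, and in S2D30 8 had. A share over all genes was not counted for the 30, 13 and 8, so these numbers describe the members alone.

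The members were set against other genes of the same kinds. Of 33 gene lists, 15 hold at least 1 member and 24 members are in a list. In SK-N-AS, 33.8% of all genes tested rose from untreated cells to S2D30 and 36.5% fell, and in GIMEN 35.5% rose and 36.0% fell (edgeR, adjusted p under 0.05). Genes that fell in SK-N-AS and rose in GIMEN made up 5.87% of the 13088 genes tested in both lines, members included. Of the list genes that are no members, 107 of 1392 (7.69%) did so, and 80 of 964 (8.30%) in the 15 lists that hold a member.

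Other synaptic vesicle genes were split in SK-N-AS, with 18 of 49 tested rising and 19 falling, and leaned upward in GIMEN, with 17 of 30 rising and 6 falling. The median log2 change of these genes was 0.01 for SK-N-AS and 0.83 for GIMEN, where all genes tested had -0.03 and 0.02. Of ion channels other than potassium channels, 31 of 79 rose and 32 fell in SK-N-AS, and 32 of 62 rose and 14 fell in GIMEN. Among G-protein-coupled receptors, adhesion receptors included, 31 of 98 rose and 41 fell in SK-N-AS, against 32 of 73 rising and 19 falling in GIMEN. Axon guidance genes fell in 33 and rose in 17 of 68 tested in SK-N-AS, and fell in 16 and rose in 22 of 53 in GIMEN. Solute carriers rose more often than they fell in both lines, 127 against 77 of 272 in SK-N-AS and 109 against 49 of 229 in GIMEN. Matrix proteins fell more often in both, 31 against 12 of 52 and 22 against 11 of 41. Cadherins fell in 50 and rose in 21 of 95 tested in SK-N-AS, while 23 fell and 22 rose of 79 in GIMEN. Neurotransmitter receptors fell in 35 and rose in 24 of 70 in SK-N-AS, and 10 fell and 16 rose of 35 in GIMEN. Interferon and antigen presentation genes rose in 30 and fell in 18 of 68 in SK-N-AS, and rose in 26 and fell in 10 of 53 in GIMEN. Growth factor and insulin-like growth factor genes rose in 26 and fell in 32 of 78, and rose in 21 and fell in 18 of 48, in the same order of lines. Wnt genes rose in 10 and fell in 16 of 43, and rose in 11 and fell in 12 of 32. For complement and acute-phase genes these counts were 14 and 15 of 41, and 14 and 9 of 29. Stress and detoxification genes gave 37 and 45 of 101, and 34 and 32 of 87, and transcription factors of no other list 107 and 69 of 221, and 74 and 60 of 172. In the adrenergic list, 20 of 23 genes fell and 1 rose in SK-N-AS, and 6 of 10 fell and 2 rose in GIMEN (1 when any 1 untreated library or D30 replicate 1 was left out).

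The difference of the 30-day change, SK-N-AS minus GIMEN, was tested for genes that are no members, and 24.5% of all 16246 genes tested were higher in it and 25.2% lower. Among synaptic vesicle genes 7 of 50 were higher and 20 lower, with a median of -0.73. Cadherins had 13 of 106 higher and 42 lower (median -0.95), axon guidance genes 13 of 69 and 28 (-0.65), and matrix proteins 13 of 55 and 22 (-0.86). In the adrenergic list 1 of 22 was higher and 9 lower, 16 by the DESeq2 test (median -2.97). The medians of the 10 remaining lists with members ran from -0.72 for neurotransmitter receptors to 0.22 for complement and acute-phase genes. For each list with at least 2 members, the gene with the smallest adjusted p of this difference was looked at singly. TRPA1, a cation channel of sensory neurons, fell from 98.6 ± 6.39 to 1.99 ± 0.21 CPM in SK-N-AS and from 8.09 ± 0.42 to 5.61 ± 1.46 CPM in GIMEN, a difference of -4.93 ± 0.19 on the log2 scale (SE; adjusted p = 7.8e-12). GSTT2B, a glutathione transferase, fell from 35.2 ± 2.27 to 11.5 ± 0.26 CPM in SK-N-AS and rose from 4.52 ± 0.48 to 7.52 ± 1.33 CPM in GIMEN, a difference of -2.17 ± 0.17 (adjusted p = 3.17e-08). SEMA7A, a membrane-anchored semaphorin, went the other way round, with a mean of 2.06 and 14.02 CPM in SK-N-AS and 112 and 10.9 CPM in GIMEN, a difference of 6.34 ± 0.26 (adjusted p = 9.97e-12). SLC7A5, a subunit of the large neutral amino acid transporter, had 47.6 and 166.5 CPM in SK-N-AS and 127 and 53.5 CPM in GIMEN, a difference of 3.21 ± 0.15 (adjusted p = 6.04e-11). MET, the receptor of hepatocyte growth factor, GPR39 and GBP3 also had positive differences, of 4.99, 8.56 and 1.99.

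**Figure D5:**
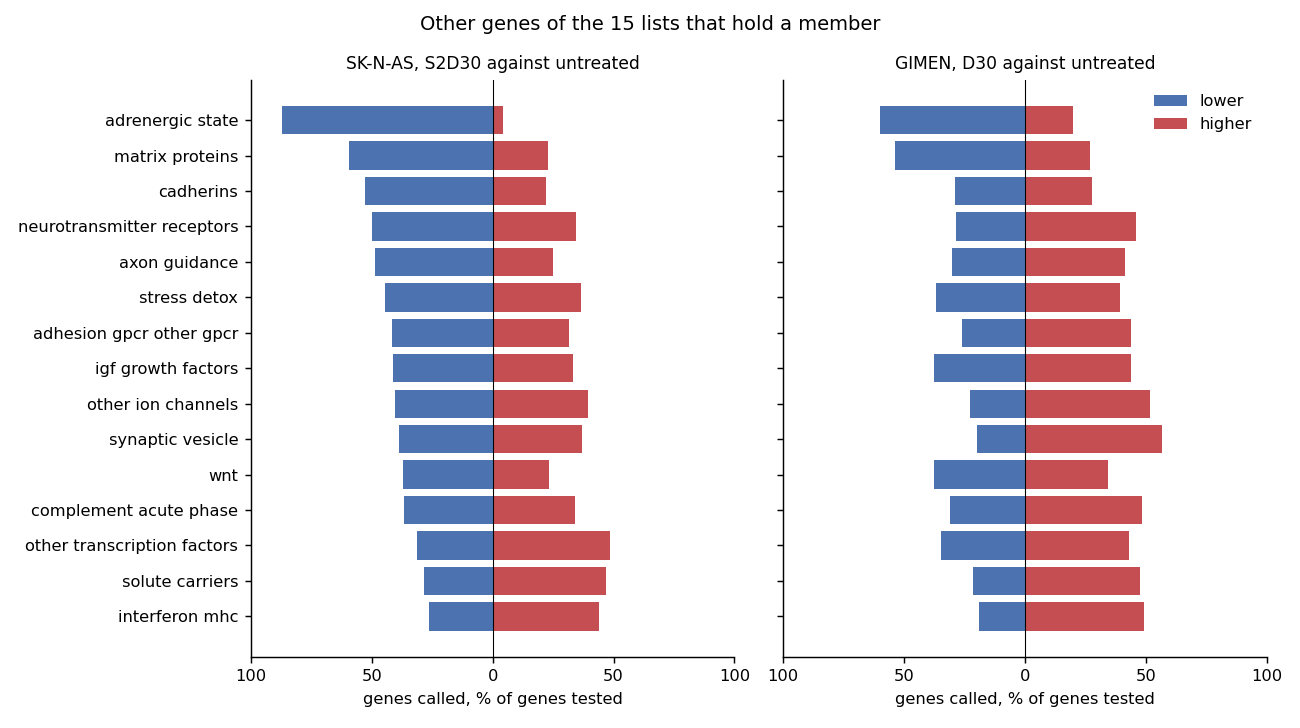
Percent of the tested genes called lower (blue, to the left) and higher (red, to the right) by edgeR after 30 days in SK-N-AS and GIMEN, for the other genes of each of the 15 lists that hold a member. The synaptic vesicle bars are near equal in SK-N-AS (18 higher, 19 lower) and longer on the higher side in GIMEN (17 higher, 6 lower), and the adrenergic bar is mostly lower in SK-N-AS (20 of 23).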

How the data were processed

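Total RNA of 22 libraries, 16 of SK-N-AS and 6 of GIMEN, was sequenced in paired-end mode on an Illumina HiSeq X, per the labels' protocols. The authors deposited 1 table of raw counts per gene symbol (35237 rows), which were whole numbers summing to 16456484 to 37506800 per library, and this depth sets the precision. Aligner, counting tool, genome build, annotation and use of strand are not given in the sources used here. Groups, doses and days come from the labels.

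CPM values were counts divided by the library total, and the rule used a pseudocount of 1 CPM. The members, gene lists, motifs and tests were chosen with earlier results of these data known, and the lists were written from general knowledge. Counts were tested in R 4.3.3 with edgeR 4.0.16 (filterByExpr with minimum count 10 and minimum total 15, TMM scaling, quasi-likelihood F-test, Benjamini-Hochberg adjustment over all genes tested, threshold 0.05). Models covered the 8 libraries of the step from S1D4 to S2D4, the 16 SK-N-AS libraries, the 6 GIMEN libraries, and 14 libraries for the difference between lines. The pipeline was tested on simulated data. Named members were the 16 with the largest smaller-of-both log2 ratio among those with a group mean of at least 10 CPM and the 2 strongest of each list. The genes nearest each threshold and, for each list with at least 2 members, 1 non-member with the smallest adjusted p of the difference between lines were also named. Genes other than these are said to fall outside the rule where they are named, or are relatives looked up after the members were known. GENCODE 29 was used only for overlap and shared sequence, and RefSeq (GRCh38.p14) for promoters. Alternatives were DESeq2 1.42.0 and its size factors, upper-quartile factors, no filter, a replicate block, other models and thresholds, and leaving out each library. Results for some genes are not reported here.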

Additional observations from a re-analysis of the deposited data

Results flagged for a closer look

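In 10 of 132 groups of 4 libraries of the named members, 1 library lay far from the other 3, where chance gives about 1 in 20 such groups. Of these, 9 were in S2D4 replicate 4. That library was the highest of its group for CKB (182 CPM, the others 51.5 to 53.3), CHGB (275 CPM), CPE (66.4 CPM), MTRNR2L12 (1790 CPM, the others 451 to 562), MFAP4 (17.2 CPM, the others 1.97 to 3.10), ZNF385A (24.7 CPM), ADGRB2 (85.6 CPM) and EFNB3 (24.3 CPM). It was the lowest for PLAU (0.292 CPM, the others 1.12 to 1.25). In untreated SK-N-AS, replicate 3 was the highest for SLC9A3R2 (34.8 CPM, the others 25.1 to 26.5).

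For 7 genes that are no members, the 30-day change differed between the lines by the interaction test. They were picked for the smallest adjusted p of that same test in each list with at least 2 members, so their passing follows from the choice. Of all 16246 genes tested, 24.5% were higher in the difference and 25.2% lower. The difference, SK-N-AS minus GIMEN on the log2 scale, was 6.34 for SEMA7A, 4.99 for MET, 1.99 for GBP3, -4.93 for TRPA1, 8.56 for GPR39, 3.21 for SLC7A5 and -2.17 for GSTT2B. GPR39 was near 0 in untreated SK-N-AS (mean 0.0131 CPM), so its fold depends on the prior count.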

How the results depend on the processing

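The number of members was 65 with TMM scaling, 62 with DESeq2 size factors, 109 with a pseudocount of 0.5 CPM and 71 with a minimum level of 10 CPM, and 72 to 88 when 1 library was left out. Those that dropped out included IGFBP2, RGS11, FGF14 and PCDH17 with TMM scaling, and GBP2, RGS11, FGF14 and PCDH17 with DESeq2 size factors. Without GIMEN D30 replicate 3 they included AKR1C3, IGFBP2 and FGF14. All 78 kept their direction in both lines, without overlap, under TMM and DESeq2 scaling. In the step from S1D4 to S2D4, leaving out 1 library gave 49 to 61 members that fell and 2 to 4 that rose, the 2 arising without S1D4 replicate 1 or 2. By fold and overlap, leaving out S2D4 replicate 4 moved the members lower in S2D4 than in S1D4 from 43 to 42. Other settings gave 38 to 57 that fell and 1 to 4 that rose, with 1 when a change of 1 or more on the log2 scale was also required. Leaving out 1 library turned the sign for MTRNR2L12 (-0.637 to 0.351), CITED1 (-0.409 to 0.0222), CHRNA1 (-0.353 to 0.176) and NTN4 (-0.42 to 0.241), the far end arising without S2D4 replicate 4 in each, and MTRNR2L12 also turned with upper-quartile factors (-0.00651). The cause was not tested. The adrenergic genes that rose in GIMEN went from 2 to 1 by the DESeq2 test, which also gave 16 rather than 9 of that list as lower in the difference between lines. CKB and EFNB3 passed with upper-quartile factors (-1.21 and -1.53) and in the model of 16 libraries (-1.06 and -1.37).

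Replicate numbers are shared between groups, but the labels give no pairing, and same-numbered libraries deviated together at correlations of only -0.01 to 0.12 in the step. With a replicate block, 54 members fell and 3 rose, 55 of the 57 calls were kept (TMTC2 and PTPN4 lost), CKB (-1.37) and EFNB3 (-1.88) passed and MTRNR2L12 turned to -0.17.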
